A study of Mus musculus with 22 samples.

Results

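The transcripts of 10 receptors that tune T cell activation were followed in CD8+ T cells: 5 inhibitory (checkpoint) receptors, Pdcd1, Ctla4, Lag3, Havcr2 and Tigit; 2 costimulatory receptors of the CD28 family, Icos and Cd28; and 3 costimulatory receptors of the TNF receptor family, Tnfrsf4, Tnfrsf9 and Cd27. They were chosen by gene symbol, with no value used, and are 10 of the 46603 genes in the count table and 10 of the 21183 that passed the filter on low counts. Bulk mRNA was sequenced from T cells isolated as naive CD8+ cells from spleen and lymph nodes of 8 mice, in 22 libraries. The mice came from lines built to alter Tcaim, which encodes a mitochondrial protein named for inhibiting T cell activation. The wt group holds 3 mice of the line Tcaim KI Cd4Cre with genotype wtcre, and the KI group (knock-in) holds 3 mice of the same line with genotype hocre. The KO group (knockout) holds 2 mice of the line Tcaim KO Cd4Cre with genotype hocre. Both line names carry Cd4Cre, Cre recombinase driven by the Cd4 promoter, which is active in the CD4 and CD8 lineages during T cell development. No wt mice of the KO line entered the comparison. Each wt and KI mouse gave a naive library, a library after 24 h and a library after 48 h of stimulation with 2 µg/ml plate-bound anti-CD3 and 1 µg/ml soluble anti-CD28. Each KO mouse gave a naive and a 48 h library. The mice were handled in experiments numbered 1, 3 and 5, which also number the replicates. KI and wt mice of experiments 1 and 3 were male, those of experiment 5 female and both KO mice female; ages are not given in the sources used here.

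A T cell receives an antigen signal through its receptor and a second signal through costimulatory receptors. CD28, constitutively present on naive T cells, binds CD80 and CD86 and amplifies the antigen signal, while CTLA-4 binds the same ligands with higher affinity and restrains the response. PD-1, LAG-3, TIM-3 and TIGIT, the products of Pdcd1, Lag3, Havcr2 and Tigit, are inhibitory receptors that appear on activated T cells and stay high on exhausted ones. The TNF receptor family members OX40 and 4-1BB, the products of Tnfrsf4 and Tnfrsf9, are induced by activation and signal through TRAF adaptors to NF-kB, whereas CD27 is already on naive cells.

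Totals of 62551905 to 93489115 counts per library stood behind the values. Levels are given as CPM, the count of a gene scaled to a common library total after a factor for composition (TMM). The CPM of Tcaim was 14.6 to 15.2 in naive wt libraries and 138 to 145 in naive KI libraries, and at 48 h it was 9.03 to 12 in wt and 229 to 260 in KI. In the libraries labelled KO it was 14.9 and 19.6 in naive cells and 11.7 and 5.99 at 48 h, not lower than in wt by the test (log2 fold change 0.21 ± 0.20 SE naive and -0.19 ± 0.21 SE at 48 h, edgeR adjusted p = 1 and 0.841), so these are called the libraries labelled KO. The defining CD8 markers were high throughout, with Cd8a at 697 to 1504 CPM. In the library labelled KO of experiment 1, naive cells held Cd4 at 184 CPM and Zbtb7b, the transcription factor of the CD4 lineage, at 46.8 CPM, against at most 54.8 and 13 CPM in any other naive library. At 48 h the same mouse held Cd4 at 152 CPM, against at most 46.5 CPM in any other 48 h library. Its naive library also held 866 CPM summed over the B cell markers Ms4a1, Cd79a, Cd79b and Pax5, 553 CPM over 5 dendritic cell markers and 140 CPM over 5 NK cell markers, against 192 to 327, 119 to 215 and 22.4 to 64.7 CPM in naive wt libraries. The dendritic cell list includes H2-Ab1, and its sum was not separated from the B cell sum. Among naive libraries both sums were lowest in the other mouse labelled KO, at 63.1 and 107 CPM. The part of the markers of other cell types in the results below was not tested.

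All 10 receptors lie on GRCm38 at starts and ends that match the GENCODE annotation. Cd28 (ENSMUSG00000026012, chromosome 1, 60716800 to 60773359), Ctla4 (ENSMUSG00000026011, chromosome 1, 60887000 to 60915832) and Icos (ENSMUSG00000026009, chromosome 1, 60977927 to 61000320) follow each other on the forward strand as neighbours. Pdcd1 (ENSMUSG00000026285, 94038305 to 94052553) is on the reverse strand of the same chromosome. Tnfrsf9 (ENSMUSG00000028965, 150914562 to 150946102) and Tnfrsf4 (ENSMUSG00000029075, 156013843 to 156016612) are on the forward strand of chromosome 4, the latter next to Tnfrsf18, which encodes the related receptor GITR. Lag3 (ENSMUSG00000030124, 124904361 to 124911705), next to Cd4, and Cd27 (ENSMUSG00000030336, 125232622 to 125237010) are on the reverse strand of chromosome 6. Havcr2 (ENSMUSG00000020399) is on the forward strand of chromosome 11 at 46454935 to 46481255, and Tigit (ENSMUSG00000071552) on the reverse strand of chromosome 16 at 43648867 to 43664146. Cd27 shares exon bases on the same strand with Mir8113, and no other receptor shares exon bases with another annotated gene.

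The 250 bases before the transcription start, from RefSeq on GRCm38.p6, were found for 7 of the 10 receptors, with 2 starts for Tnfrsf9. They were searched on both strands for the AP-1 site TGANTCA, the NFAT core GGAAAA and the NF-kB consensus, the motifs of the factors that the antigen and costimulatory signals switch on. Of 32851 promoters of this length, 6.75% held the AP-1 site, 20.4% the NFAT core and 7.25% the NF-kB consensus. The 4 windows printed below each hold a match, and belong to 3 receptors that rose on stimulation and to Havcr2, which did not. Windows without a match are not printed, also where the receptor rose. Capitals mark the matches, an NFAT core on the reverse strand in the first 3 and an AP-1 site in Havcr2.
Ctla4, chr1:60908775-60909024, + strand: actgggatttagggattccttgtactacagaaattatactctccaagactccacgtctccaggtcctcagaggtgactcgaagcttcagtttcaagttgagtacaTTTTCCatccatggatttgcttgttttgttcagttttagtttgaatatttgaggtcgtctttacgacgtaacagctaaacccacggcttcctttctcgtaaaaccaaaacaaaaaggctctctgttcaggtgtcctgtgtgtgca
Tnfrsf9, chr4:150919905-150920154, + strand: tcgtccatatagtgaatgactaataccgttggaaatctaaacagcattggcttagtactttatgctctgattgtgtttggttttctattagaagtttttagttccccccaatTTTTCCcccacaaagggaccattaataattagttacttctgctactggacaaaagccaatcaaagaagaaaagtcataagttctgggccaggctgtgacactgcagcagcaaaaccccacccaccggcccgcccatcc
Tigit, chr16:43664185-43664434, - strand: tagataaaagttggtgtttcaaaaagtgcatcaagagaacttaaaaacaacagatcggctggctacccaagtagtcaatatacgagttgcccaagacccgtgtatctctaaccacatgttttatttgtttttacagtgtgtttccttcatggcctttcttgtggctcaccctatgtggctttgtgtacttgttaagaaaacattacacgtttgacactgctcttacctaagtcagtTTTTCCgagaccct
Havcr2, chr11:46454681-46454930, + strand: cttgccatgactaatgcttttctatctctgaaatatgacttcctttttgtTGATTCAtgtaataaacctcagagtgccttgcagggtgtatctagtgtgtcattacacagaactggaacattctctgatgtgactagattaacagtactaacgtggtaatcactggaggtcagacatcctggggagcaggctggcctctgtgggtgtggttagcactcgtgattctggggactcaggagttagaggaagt
The second Tnfrsf9 window held an AP-1 site and 2 overlapping NF-kB matches, and the Cd27 window 1 NFAT core. The Pdcd1 and Tnfrsf4 windows held none of the 3 motifs. The windows of Ctla4 and Tnfrsf9 lie inside the gene spans given above. A match describes the letters only, and the receptors that rose had windows with and without matches.

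Stimulation raised 4 of the 5 inhibitory receptors in all 3 genotypes. In wt cells Lag3 rose by 5.61 ± 0.38 (SE) on the log2 scale at 24 h and by 6.22 ± 0.39 at 48 h, Pdcd1 by 4.61 ± 0.42 and 4.74 ± 0.42, Tigit by 3.22 ± 0.42 and 4.37 ± 0.44 and Ctla4 by 1.76 ± 0.34 and 3.17 ± 0.36 (edgeR quasi-likelihood test, adjusted p at most 0.000346). Over all genes tested, 26.3% were called higher and 22% lower at 24 h, and 29.5% higher and 26.8% lower at 48 h, with a gene called at an adjusted p under 0.05. Among all 10 receptors, 8 were called higher and 0 lower at 24 h, and 8 higher and 2 lower at 48 h.

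Pdcd1, the PD-1 gene, stood at 1.56, 1.65 and 3.10 CPM in the naive wt libraries of experiments 1, 3 and 5, at 46.3, 56.1 and 50.9 CPM after 24 h and at 46.8, 75.8 and 45.9 CPM after 48 h. The 24 h and 48 h groups overlapped, and the 48 h level differed from the 24 h level by 0.14 ± 0.35 (SE) on the log2 scale (edgeR adjusted p = 0.882). Lag3, whose product binds MHC class II, stood at 2.15, 3.29 and 2.88 CPM in naive wt cells, at 129, 167 and 112 CPM at 24 h and at 171, 274 and 176 CPM at 48 h. Its 24 h and 48 h groups did not overlap, but the difference of 0.61 ± 0.31 (SE) was not called (edgeR adjusted p = 0.267).

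Ctla4 was already present in naive wt libraries and kept rising. Its wt levels were 26.7, 42.3 and 23.6 CPM in naive libraries, 109, 102 and 103 CPM at 24 h and 323, 320 and 193 CPM at 48 h. The part of other cell types in the naive level was not tested. The step from 24 h to 48 h was 1.41 ± 0.34 (SE) on the log2 scale (edgeR adjusted p = 0.0156), and it was no longer called with any 1 of the 3 wt mice left out (adjusted p up to 0.2). Tigit, which competes with CD226 for the ligand CD155, stood at 1.53, 4.03 and 1.96 CPM, then at 22.6, 26.8 and 20.5 CPM, then at 42.9, 63.9 and 48.3 CPM. All 3 of its time groups were separate, and the later step of 1.15 ± 0.38 (SE) missed the threshold (edgeR adjusted p = 0.0756); with the mouse as a replicate block it was called (1.13, edgeR adjusted p = 0.00867).

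Havcr2, the TIM-3 gene, went the other way and was close to the detection limit. It stood at 0.748, 1.16 and 1.73 CPM in naive wt cells, at 0.226, 0.341 and 0.671 CPM at 24 h and at 0.0596, 0.302 and 0.147 CPM at 48 h, where the counts behind the values were 5, 24 and 11. It fell by 2.82 ± 0.80 (SE) on the log2 scale at 48 h (edgeR adjusted p = 0.00598), and by 24 h the difference was called only in some fits, among them that with the mouse as a replicate block (-1.59, edgeR adjusted p = 0.0139). The 48 h call was lost without the wt mouse of experiment 5 (adjusted p = 0.0595). The summed level of the 6 myeloid markers, all measured and none at 0 throughout, was also lower in wt cells. It went from 103 to 231 CPM in naive wt libraries to 20.3 to 32 CPM at 48 h. Cd68, 1 of the 6, was not called lower there (-0.55 ± 0.26 SE, edgeR adjusted p = 0.0758). In KI cells the myeloid sum went from 27.7 to 61.3 CPM at 24 h to 26 to 33.3 CPM at 48 h. Over that step Havcr2 rose by 3.63, 1.31 and 1.46 on the log2 scale in the KI mice of experiments 1, 3 and 5. The gene most like Havcr2 over the 22 libraries was Cybb, which encodes a subunit of the phagocyte oxidase, with Pearson r of 0.881 on log2 CPM. The part of other cell types in the level of Havcr2 was not tested, and in bulk libraries fewer cells of a type and less RNA per cell cannot be told apart.

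Both CD28-family costimulatory receptors rose on stimulation, Icos up to 48 h and Cd28 with a peak at 24 h. Icos, the inducible costimulator, stood at 42.1, 48.4 and 37.6 CPM in naive wt libraries, at 95.6, 101 and 89.6 CPM at 24 h and at 158, 125 and 116 CPM at 48 h. Its groups did not overlap at any step, and it rose by 1.16 ± 0.13 (SE) at 24 h and by 1.64 ± 0.13 at 48 h (edgeR adjusted p at most 1.08e-06). Cd28 stood at 93.7, 122 and 99.3 CPM in naive wt cells, peaked at 599, 464 and 506 CPM at 24 h and was lower at 272, 375 and 211 CPM at 48 h. It rose by 2.32 ± 0.20 (SE) at 24 h and then fell by 0.87 ± 0.19 between 24 h and 48 h (edgeR adjusted p = 4.25e-08 and 0.0102).

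In the TNF receptor family, Tnfrsf9 and Tnfrsf4 rose with different timing and Cd27 fell late. Tnfrsf9, the 4-1BB gene, stood at 10.02, 10.1 and 12.3 CPM in naive wt libraries, at 239, 276 and 337 CPM at 24 h and at 432, 641 and 548 CPM at 48 h. Most of its change of 5.64 ± 0.24 (SE) on the log2 scale was in place at 24 h, at 4.72 ± 0.23 (edgeR adjusted p = 7.89e-12 and 4.64e-11). Tnfrsf4, the OX40 gene, stood at 7.94, 10.6 and 7.43 CPM, then at 23.3, 29.0 and 29.4 CPM, then at 130, 159 and 122 CPM. Its step from 24 h to 48 h, 2.33 ± 0.31 (SE), was the largest among the 10 receptors in wt cells (edgeR adjusted p = 0.000383). Cd27 stood at 245, 226 and 240 CPM in naive wt cells and at 253, 230 and 277 CPM at 24 h, groups that overlapped, and at 165, 163 and 157 CPM at 48 h, below every earlier wt library. It fell by 0.55 ± 0.14 (SE) from naive to 48 h (edgeR adjusted p = 0.00291).

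Between 24 h and 48 h in wt cells, 4 receptors were called higher (Ctla4, Icos, Tnfrsf4 and Tnfrsf9) and 2 lower (Cd28 and Cd27), where 4.08% of all genes were called higher and 3.41% lower. That count of 6 was 1 without the wt mouse of experiment 1 and 2 without that of experiment 5. Fewer libraries enter those fits, and their shares over all genes are not reported here.

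**Figure D1:**
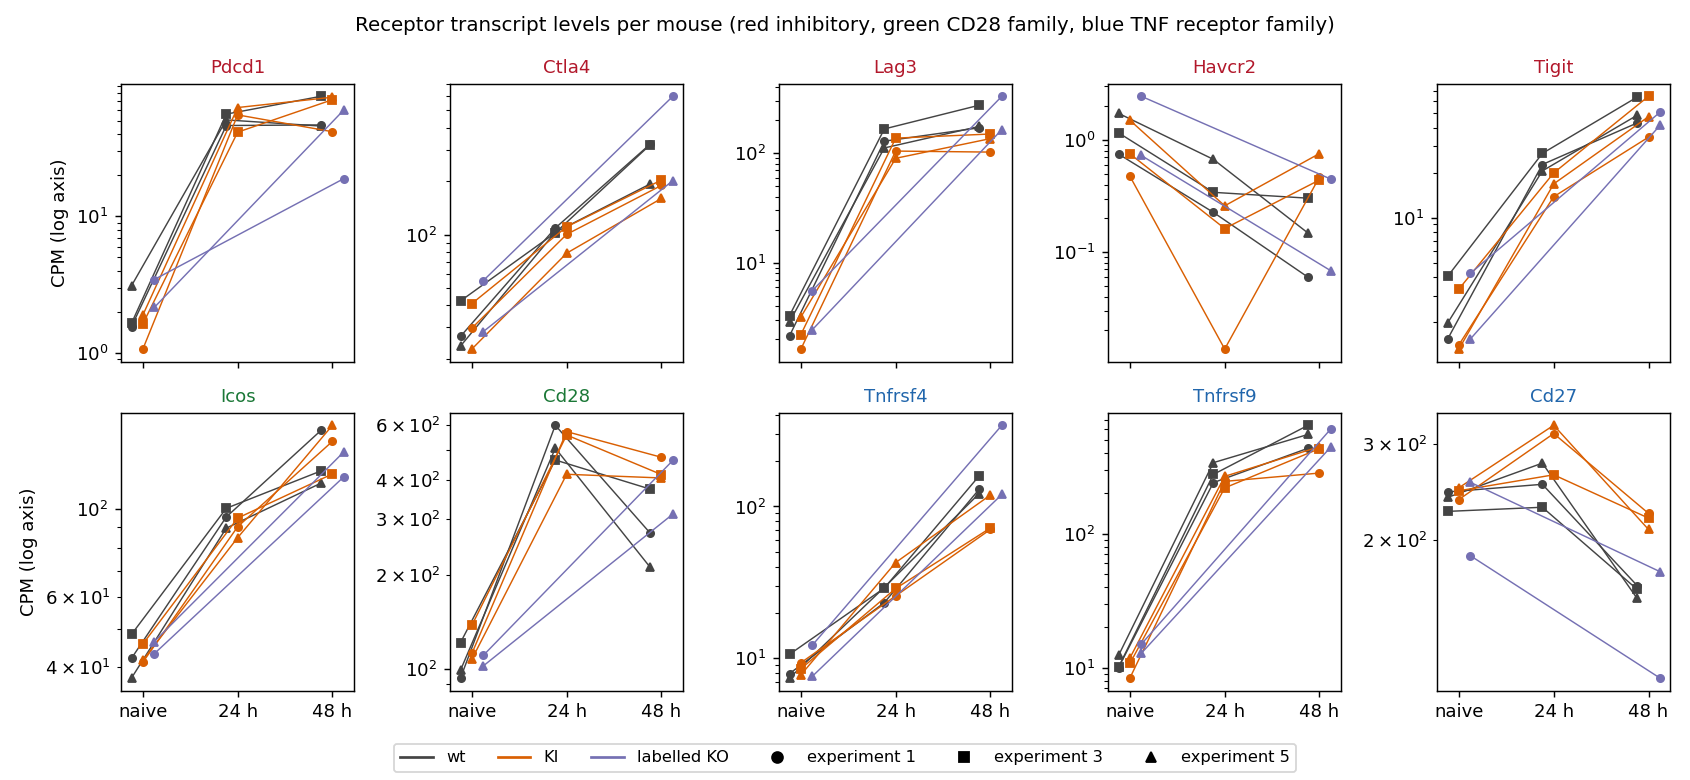
CPM of each receptor (vertical axis, log scale) in naive cells and after 24 h and 48 h of stimulation (horizontal axis); each line joins the libraries of 1 mouse, colours give the genotype label and symbols the experiment. Lag3, Pdcd1, Tigit and Tnfrsf9 rise steeply by 24 h, Tnfrsf4 and Ctla4 keep rising, Cd28 peaks at 24 h in wt, and Havcr2 stays at or under 2.45 CPM in every library.

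KI cells showed the same set of risers. At 24 h, 8 receptors were called higher and 1, Havcr2, lower, where 22.9% of all genes were called higher and 15.8% lower; at 48 h 8 were called higher and 0 lower, where 26.6% were called higher and 22.1% lower. In KI cells Lag3 rose by 5.78 ± 0.38 (SE) on the log2 scale at 48 h, Pdcd1 by 5.35 ± 0.44, Tnfrsf9 by 5.22 ± 0.23, Tigit by 4.60 ± 0.44, Tnfrsf4 by 3.35 ± 0.33 and Ctla4 by 2.56 ± 0.35 (edgeR adjusted p at most 9.32e-06). Cd28 rose by 2.11 ± 0.20 (SE) at 24 h and by 1.86 ± 0.20 at 48 h, and Icos by 1.07 ± 0.13 and 1.75 ± 0.13. Havcr2 fell by 2.61 ± 0.80 (SE) at 24 h (edgeR adjusted p = 0.0147), a call lost with any 1 of the 3 KI mice left out, and 1 of the 3 KI libraries at 24 h held a single count. From 24 h to 48 h in KI cells Tigit, Icos and Tnfrsf4 were called higher and none lower, where 1.71% of all genes were called higher and 0.968% lower. With the mouse as a replicate block 7 receptors were called in that step, with Ctla4, Havcr2 and Tnfrsf9 higher and Cd27 lower in addition (edgeR adjusted p = 0.01, 0.0398, 0.0271 and 0.0271), where 3.82% of all genes were called. With any 1 of the KI mice left out, 0 to 1 were called. Shares over all genes in those smaller fits are not reported here. The block also gave a call for Cd27 at 24 h in KI cells (0.29, edgeR adjusted p = 0.038).

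In the libraries labelled KO, 8 receptors were called higher and 2, Havcr2 and Cd27, lower at 48 h, where 23.6% of all genes were called higher and 20.4% lower. Tnfrsf9 rose by 5.23 ± 0.28 (SE) on the log2 scale, Lag3 by 5.95 ± 0.47, Tnfrsf4 by 4.54 ± 0.42, Tigit by 3.99 ± 0.53, Pdcd1 by 3.82 ± 0.49 and Ctla4 by 3.26 ± 0.44 (edgeR adjusted p at most 1.11e-05). In the mice of experiments 1 and 5 the rise was 2.45 and 4.79 for Pdcd1 and 3.57 and 4.72 for Tigit. It was 4.81 and 3.97 for Tnfrsf4, 3.45 and 2.82 for Ctla4, 5.89 and 6.06 for Lag3 and 5.33 and 5.11 for Tnfrsf9. Against the naive wt library of the same experiment, their naive libraries differed by 1.45 and -0.35 for Tigit and by 1.13 and -0.52 for Pdcd1. For Lag3 the naive difference was 1.36 and -0.24 and for Ctla4 1.04 and 0.27. In experiment 1 the KO mouse was female and the wt mouse male, so sex cannot be told apart from the genotype label there. Without the mouse of experiment 1, which carried markers of other cell types, 9 receptors were called, Havcr2 being the one lost.

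**Figure D2:**
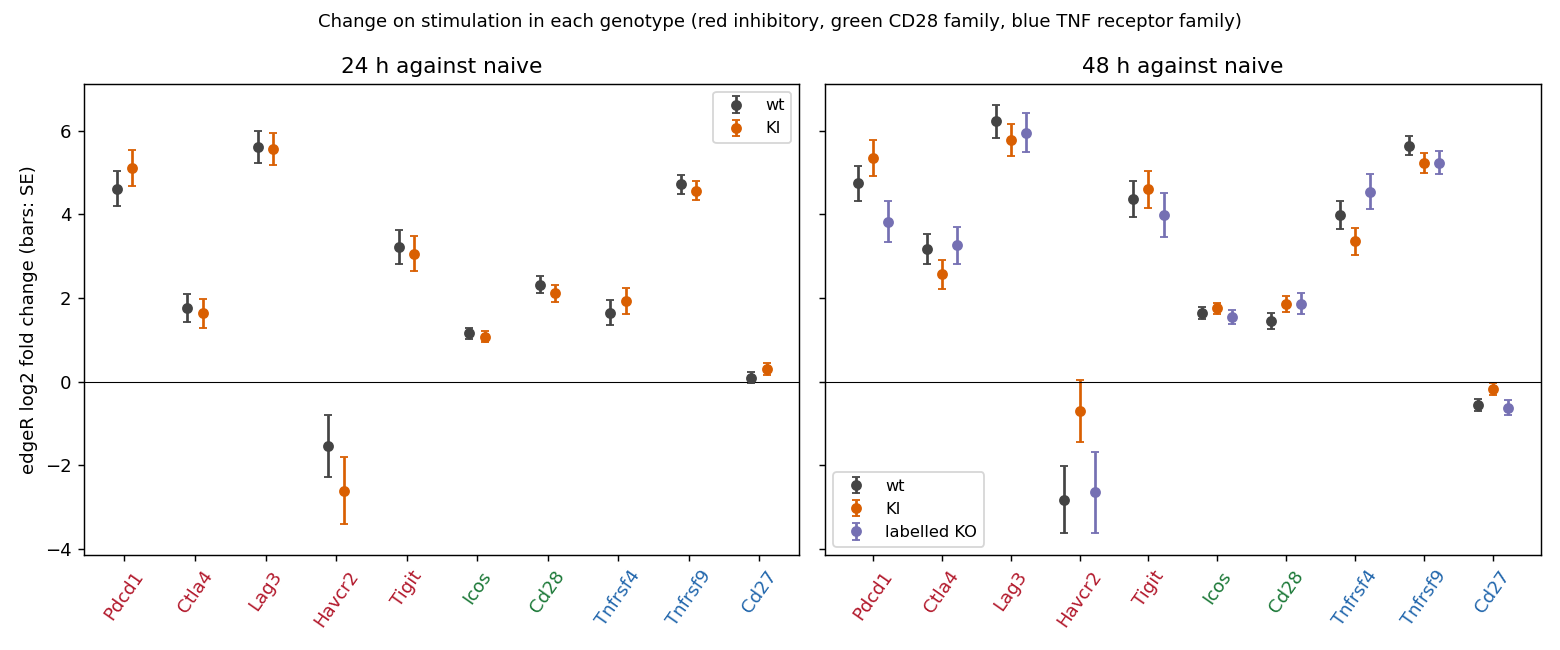
Log2 fold change of each receptor against naive cells of the same genotype label at 24 h (left; wt and KI) and 48 h (right; wt, KI and the libraries labelled KO), with bars of 1 SE from edgeR. At 48 h 8 receptors lie above 0 in each genotype, with Lag3 highest, and Havcr2 and Cd27 lie at or below 0.

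By class, the median log2 fold change in wt cells at 48 h was 4.36 for the 5 inhibitory receptors, 3.98 for the 3 TNF-family receptors and 1.54 for the 2 CD28-family receptors, beside -0.0398 over all genes tested. At 24 h the medians were 3.22, 1.65 and 1.74, beside -0.0479. In KI cells at 48 h they were 4.60, 3.35 and 1.81. The classes were not homogeneous: the inhibitory receptors ran from -2.82 for Havcr2 to 6.22 for Lag3 at 48 h in wt cells, and the TNF-family receptors from -0.55 for Cd27 to 5.64 for Tnfrsf9.

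The order of the receptors was compared on the deposited FPKM, which divides by transcript length. Naive wt cells were dominated by Cd27, at 121 ± 4.10 FPKM (SD, n = 3), followed by Cd28 at 20.4 ± 3.06, Ctla4 at 15.8 ± 5.29 and Icos at 14.8 ± 2.03 FPKM. Ctla4 did not differ from either neighbour beyond the spread, while the Cd28 libraries lay above all Icos libraries. Tnfrsf4 at 7.56 ± 1.58, Tnfrsf9 at 4.72 ± 0.54, Tigit at 3.11 ± 1.69, Lag3 at 1.57 ± 0.34, Pdcd1 at 1.29 ± 0.52 and Havcr2 at 0.53 ± 0.21 FPKM came after them. At 24 h Cd27 at 122 ± 10.1 FPKM and Tnfrsf9 at 117 ± 19.4 FPKM headed the order within each other's spread, and Cd28 followed at 95.5 ± 12.5 FPKM. At 48 h Tnfrsf9 led in wt cells at 222 ± 41.7 FPKM. Ctla4 at 133 ± 35.5, Tnfrsf4 at 112 ± 15.4 and Lag3 at 109 ± 30.2 FPKM followed without differing beyond their spread, and Cd27 had moved to position 5 at 77.6 ± 2.23 FPKM. Tigit at 59.97 ± 12.3, Cd28 at 52.2 ± 14.8, Icos at 43.4 ± 7.35 and Pdcd1 at 32.5 ± 9.65 FPKM came next, and Havcr2 was last at 0.0695 ± 0.05 FPKM.

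The mix of the 3 classes shifted with stimulation. In naive wt libraries inhibitory receptors made up 11.6 ± 2.98% (SD, n = 3) of the summed FPKM of the 10 receptors, the TNF family 70.0 ± 4.59% and the CD28 family 18.4 ± 1.6%. At 48 h the inhibitory share was 39.6 ± 3.12% in wt and 35.1 ± 3.47% in KI, and the TNF-family share 49.1 ± 4.07% and 46.9 ± 3.00%. The CD28-family share at 48 h was 11.4 ± 1.34% in wt, with libraries from 10.3% to 12.9%, and 18 ± 3.18% in KI, with libraries from 15.5% to 21.5%. At 24 h it was 22.4 ± 2.62% in wt. A lower share was not a lower level. From naive to 48 h in wt the mean summed FPKM rose from 133 to 411 for the TNF family. It rose from 35.2 to 95.5 for the CD28 family and from 22.3 to 335 for the inhibitory receptors.

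Ctla4 and Cd28, whose products share their ligands, changed order. The ratio of Ctla4 to Cd28 FPKM was 0.749, 0.915 and 0.625 in naive wt libraries, 0.478, 0.579 and 0.535 after 24 h, and 3.12, 2.24 and 2.39 after 48 h. For the KI libraries the ratio was 0.697, 0.779 and 0.554 in naive cells, 0.461, 0.521 and 0.494 at 24 h and 1.05, 1.28 and 1.03 at 48 h. Cd28 thus exceeded Ctla4 per length in every naive and 24 h library of wt and KI and Ctla4 exceeded Cd28 in every 48 h library, and the wt and KI ratios at 48 h did not overlap. No test was run on this ratio, which was picked for the pair's shared ligands. Neither gene was called between KI and wt in the main fit, and Cd28 at 48 h was called in alternative fits given below. In the libraries labelled KO the ratio was 1.31 and 0.729 in naive cells and 3.41 and 1.69 at 48 h, the higher value each time in the mouse of experiment 1.

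**Figure D3:**
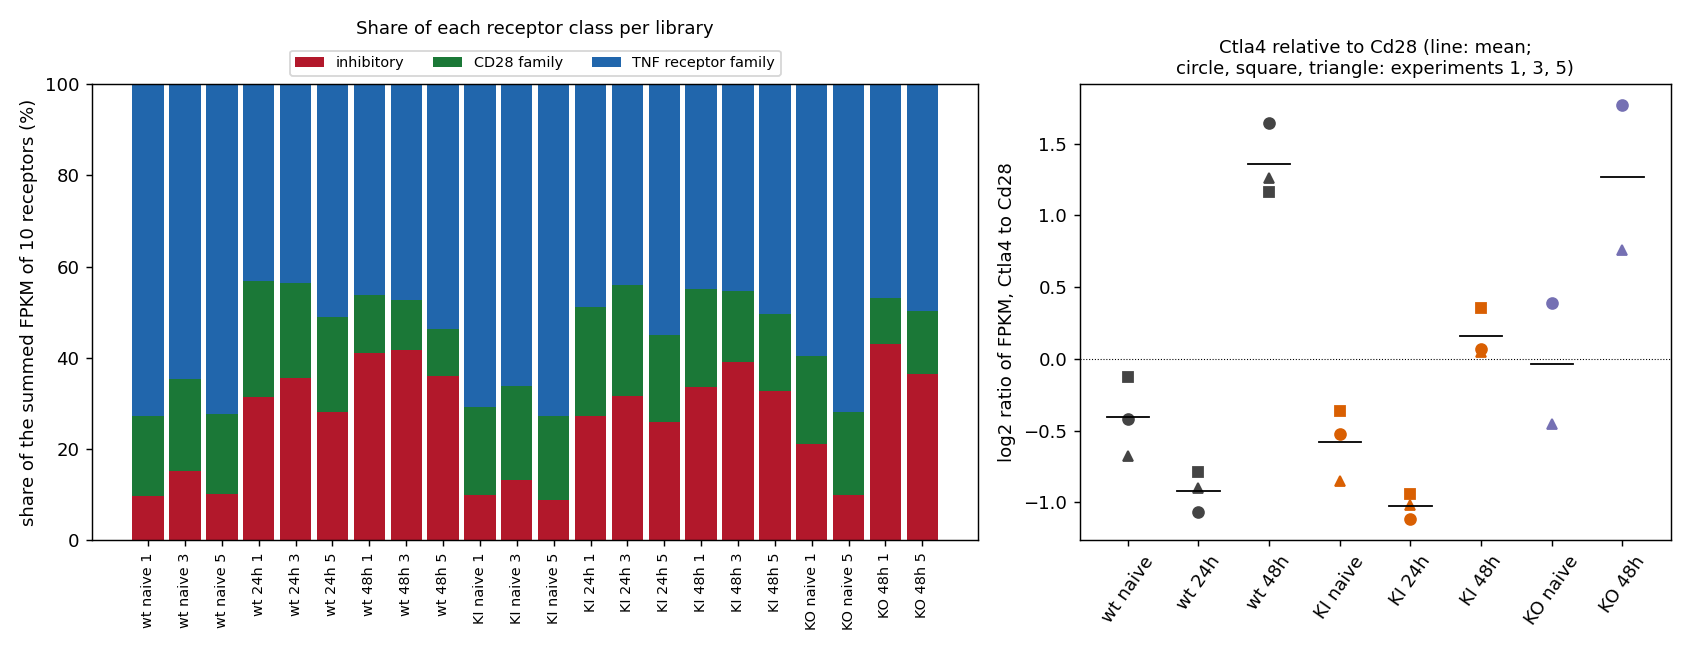
Left, share of the summed FPKM of the 10 receptors (vertical axis, percent) taken by each class in every library; right, log2 ratio of Ctla4 to Cd28 FPKM per library by group, with a line at the mean. The inhibitory share is 8.79% to 21% in naive libraries and 32.7% to 43.0% at 48 h, and the 3 wt libraries at 48 h lie above the 3 KI libraries in the right panel.

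Between KI and wt no receptor was called at any time by the main edgeR fit, DESeq2 or limma. Among naive cells 0.113% of all genes were called, at 24 h 0.00472% and at 48 h 4.17%. At an unadjusted p under 0.05, 0 receptors passed in naive cells, 0 at 24 h and 6 at 48 h (Lag3, Havcr2, Cd28, Tnfrsf4, Tnfrsf9 and Cd27), where 17.9% of all genes did. The 3 libraries of KI and the 3 of wt did not overlap for 0 receptors in naive cells, 1 at 24 h and 5 at 48 h, where the shares over all genes were 10.6%, 20.5% and 20.9%. This count was added after the data had been seen.

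In naive cells the estimates lay between -0.45 (Pdcd1) and 0.19 (Cd28) on the log2 scale, KI against wt. The intervals were narrow for Icos, from -0.27 to 0.28, and for Cd27, from -0.25 to 0.34, and wide for Havcr2, from -1.94 to 1.12. At 24 h the receptor without overlap was Tigit, at 13.8, 19.9 and 16.8 CPM in KI against 22.6, 26.8 and 20.5 CPM in wt. Its difference of -0.47 ± 0.38 (SE) had a 95% interval from -1.26 to 0.32 (edgeR adjusted p = 0.758).

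At 48 h the costimulatory receptors Cd28 and Cd27 were higher in every KI library than in any wt library. Cd28 stood at 473, 417 and 407 CPM in KI, against 272, 375 and 211 CPM in wt, a log2 difference of 0.60 ± 0.19 (SE, edgeR adjusted p = 0.093). Within experiments 1, 3 and 5 the difference was 0.80, 0.15 and 0.94, and with the experiment as a replicate block it was called (0.62, edgeR adjusted p = 0.034), as it was without the wt mouse of experiment 3 (0.84, edgeR adjusted p = 0.0181). In these fits 4.74% and 6.15% of all genes were called. The wt mouse of experiment 3 held the wt level of Cd28 nearest to KI, at 375 CPM. Cd27 stood at 224, 220 and 209 CPM in KI against 165, 163 and 157 CPM in wt, a difference of 0.43 ± 0.14 (SE) with a 95% interval from 0.13 to 0.73 (edgeR adjusted p = 0.0984). The within-experiment values of Cd27 were alike, at 0.44, 0.43 and 0.42.

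Lag3 and Tnfrsf4 were lower in every KI library at 48 h. Lag3 stood at 102, 150 and 136 CPM in KI, a difference of -0.68 ± 0.31 (SE) with a 95% interval from -1.32 to -0.03 (edgeR adjusted p = 0.254), and within experiments 1, 3 and 5 it was -0.74, -0.87 and -0.37. Tnfrsf4 stood at 70.7, 72.3 and 119 CPM in KI, a difference of -0.65 ± 0.30 (SE) with a 95% interval from -1.27 to -0.02 (edgeR adjusted p = 0.263). Its within-experiment values were -0.88, -1.14 and -0.03, so that the mice of experiment 5 did not show it. Ctla4, at 189, 203 and 160 CPM in KI, overlapped with wt, whose mouse of experiment 5 stood at 193 CPM, and differed by -0.60 ± 0.33 (SE, edgeR adjusted p = 0.371), with within-experiment values of -0.77, -0.66 and -0.27.

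Tnfrsf9 stood at 282, 430 and 444 CPM in KI at 48 h and overlapped with wt, with a difference of -0.49 ± 0.19 (SE, edgeR adjusted p = 0.177) and within-experiment values of -0.62, -0.58 and -0.30. Havcr2 stood at 0.467, 0.440 and 0.756 CPM in KI, from 32, 32 and 54 counts, above the 3 wt libraries. Its difference of 1.70 ± 0.79 (SE) had the widest interval, from 0.04 to 3.36 (edgeR adjusted p = 0.265). The summed myeloid markers overlapped between the groups at 26 to 33.3 CPM in KI and 20.3 to 32 CPM in wt. Singly, KI against wt, Lyz2 differed by 2.43, Cd14 by 1.19, Adgre1 by 0.71, Itgam by 0.62, Cd68 by 0.46 and Csf1r by -0.33, none called. The part of myeloid cells in the Havcr2 difference was not tested. Pdcd1, Tigit and Icos had estimates of 0.16, -0.08 and 0.12, with 95% intervals from -0.59 to 0.90, from -0.87 to 0.70 and from -0.15 to 0.39.

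**Figure D4:**
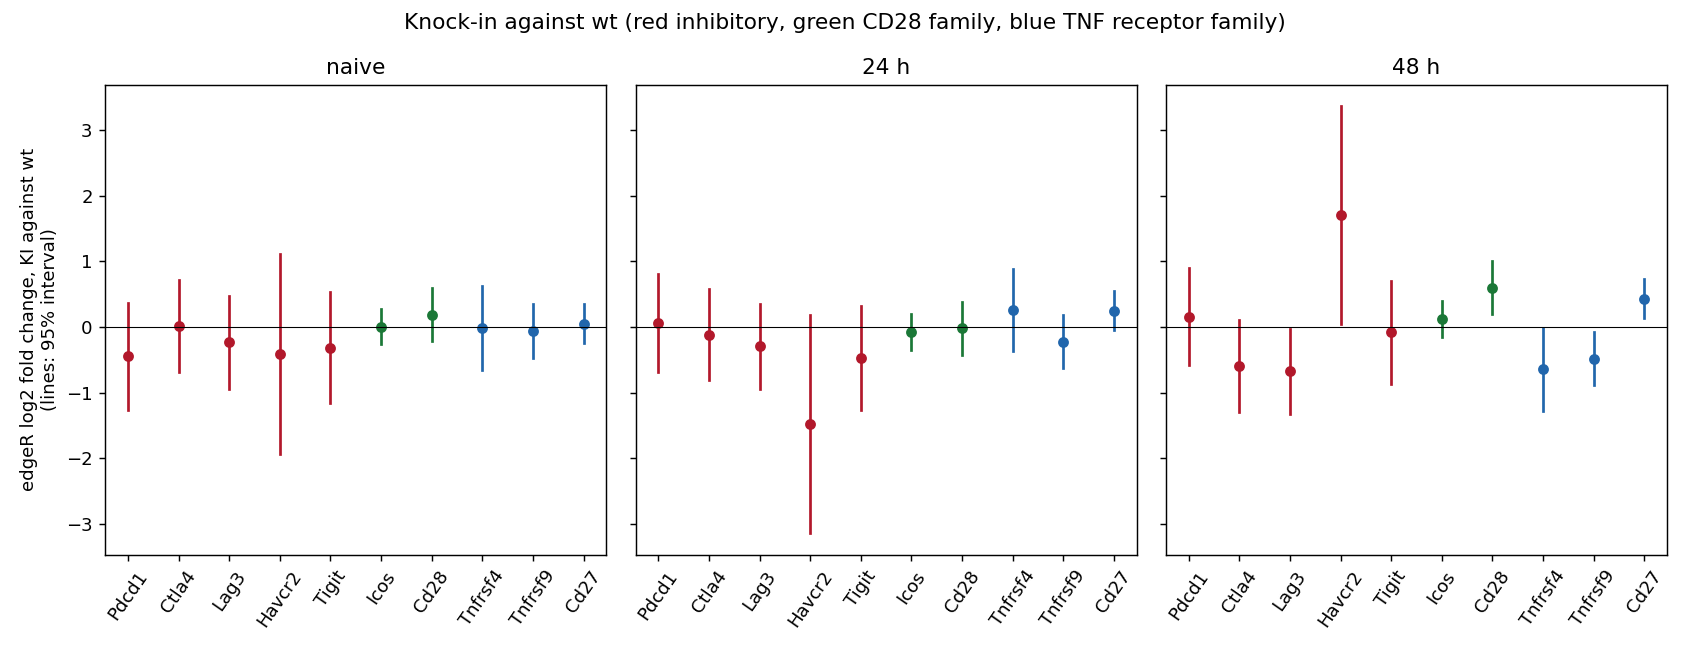
Log2 fold change of KI against wt (vertical axis; lines, 95% intervals from edgeR) for each receptor in naive cells and at 24 h and 48 h. At 48 h Havcr2, Cd28 and Cd27 lie above 0 and Lag3, Tnfrsf4 and Tnfrsf9 below it with unadjusted intervals that leave out 0, none of them called after adjustment over all genes.

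The change on stimulation itself was compared between genotypes. No receptor was called in any of the 4 such tests by edgeR, DESeq2 or limma. Over all genes 0% were called for KI against wt at 24 h (0 genes, with 694 at an unadjusted p under 0.05, 4 by DESeq2 and 0 by limma), 0.387% at 48 h, 0.00472% for the step from 24 h to 48 h and 0% for the libraries labelled KO at 48 h (0 genes, with 492 at an unadjusted p under 0.05, 0 by DESeq2 and 0 by limma). At an unadjusted p under 0.05, 3 receptors passed in the step from 24 h to 48 h, where 5.66% of all genes did. In the other tests 0 passed, where 3.28% (KI at 24 h), 9.7% (KI at 48 h) and 2.32% (libraries labelled KO) of all genes did. In that step Cd28 differed by 0.62 ± 0.27 (SE), Tnfrsf4 by -0.90 ± 0.42 and Havcr2 by 3.18 ± 1.12 (edgeR adjusted p = 0.831, 0.874 and 0.676).

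The libraries labelled KO gave no call against wt either, by edgeR, DESeq2 or limma. In naive cells 0.0236% of all genes were called and at 48 h 0.0283%; at an unadjusted p under 0.05, 0 receptors passed in naive cells and 1, Tnfrsf4, at 48 h, where 1.31% and 6.92% of all genes did. The 2 mice differed widely at 48 h: Ctla4 stood at 600 and 201 CPM in experiments 1 and 5, Tnfrsf4 at 342 and 120 CPM, Lag3 at 331 and 164 CPM, Pdcd1 at 18.9 and 60.2 CPM and Cd27 at 112 and 175 CPM. In Ctla4, Tnfrsf4 and Lag3 the mouse of experiment 1 lay above every wt library, and in Pdcd1 and Cd27 below every one. With that mouse alone 4 receptors were called against wt at 48 h: Tnfrsf4 at 1.32, Ctla4 at 1.10 and, lower, Pdcd1 at -1.57 and Cd27 at -0.53 (edgeR adjusted p = 0.00303, 0.0188, 0.0163 and 0.012), on the assumption that a single library varies like the other groups. In that fit 21.5% of all genes were called. Without it 0 were called, and the estimates were -0.19 for Tnfrsf4, -0.47 for Ctla4, 0.10 for Pdcd1 and 0.12 for Cd27. It is the mouse with the CD4, B cell, dendritic cell and NK cell markers above, and their part in these values was not tested. The KO mice were female and the wt group held males and females, and the part of sex was not tested.

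The ligands of the receptors, some of which T cells make themselves, moved in both directions in wt cells. At 48 h 6 of the 13 tested were called higher and 3 lower, where 29.5% of all genes were called higher and 26.8% lower. Tnfsf4, the OX40 ligand, rose by 6.53 ± 0.54 (SE) on the log2 scale from 0.168, 0.178 and 0.174 CPM to 11, 10.9 and 26.7 CPM (edgeR adjusted p = 1.4e-08). Cd70, the CD27 ligand, was at 0 counts in the 3 naive libraries and at 10, 8 and 10 counts at 48 h, and was called higher (edgeR adjusted p = 0.00291). Icosl, the ICOS ligand, fell by 3.53 ± 0.61 (SE) and Ceacam1, a TIM-3 ligand, by 3.54 ± 0.66 (edgeR adjusted p = 7.91e-05 and 0.000166). The myeloid marker sum given above for Havcr2 was also lower at 48 h. The dendritic cell marker sum went from 119 to 215 CPM in naive wt libraries to 11.5 to 46.9 CPM at 48 h and the sum of the 4 B cell markers from 192 to 327 CPM to 34.7 to 92 CPM, and the part of these in the falls was not tested.

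Between KI and wt at 48 h, 3 of the 13 ligands tested were called higher and 1 lower, where 4.17% of all genes were called. Cd80 stood at 2.52, 4.46 and 3.03 CPM in KI against 14.5, 11.5 and 19.6 CPM in wt, a difference of -2.19 ± 0.45 (SE, edgeR adjusted p = 0.00913). Cd86, which binds the same receptors, went the other way, at 13.7, 13.1 and 13.9 CPM against 5.60, 6.11 and 7.08 CPM, a difference of 1.11 ± 0.20 (SE, edgeR adjusted p = 0.0047). Both groups were separate for both genes, and both calls were lost without the KI mouse or the wt mouse of experiment 1. At 48 h the dendritic cell marker sum was 31.8 to 85.5 CPM in KI and 11.5 to 46.9 CPM in wt, and that of the 4 B cell markers 79.3 to 170 CPM and 34.7 to 92 CPM; their part in the ligands was not tested. Cd274, the PD-L1 gene, was higher by 0.81 ± 0.22 (SE) and Ceacam1 by 2.77 ± 0.64 (edgeR adjusted p = 0.0388 and 0.0188), each called in 9 of 15 alternative fits.

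Other inhibitory receptors mostly fell in wt cells, 6 of 10 being called lower and 2 higher at 48 h, with a median of -1.51. Over all genes 26.8% were called lower and 29.5% higher, with a median of -0.0398. Klrg1, a receptor of antigen-experienced and NK cells, fell by 4.09 ± 0.97 (SE) and Cd244a, the 2B4 gene, by 2.32 ± 0.49, while the NK marker sum went from 22.4 to 64.7 CPM in naive wt libraries to 0.93 to 2.1 CPM at 48 h; its part was not tested. Cd160 rose by 1.54 ± 0.25 (SE) and Cd5 by 0.47 ± 0.15 (edgeR adjusted p = 5.04e-05 and 0.0142), the Cd5 call being lost under upper-quartile scaling and without the wt mouse of experiment 1 or 3 (adjusted p up to 0.165). None of these 10 was called between KI and wt by edgeR at any time.

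Of 12 other costimulatory receptors, 4 were called higher and 4 lower in wt cells at 48 h. Over all genes, 29.5% were called higher and 26.8% lower. Tnfrsf8, the CD30 gene, rose by 2.82 ± 0.70 (SE) and Tnfrsf18 by 2.58 ± 0.22, and Tnfrsf25 fell by 1.96 ± 0.31 and Cd2 by 0.84 ± 0.30, a call lost without the wt mouse of experiment 5 (edgeR adjusted p = 0.263). Between KI and wt at 48 h 2 of the 12 were called higher and 1 lower, where 4.17% of all genes were called. Klrk1, which encodes the receptor NKG2D, stood at 18.4, 38.8 and 13.1 CPM in KI against 110, 229 and 66.0 CPM in wt, a difference of -2.52 ± 0.42 (SE, edgeR adjusted p = 0.00252), lost without the KI mouse of experiment 1 and with only the compared groups fitted. Slamf6 was higher by 0.93 ± 0.21 (SE) and Tnfrsf14, the HVEM gene, by 0.75 ± 0.21 (edgeR adjusted p = 0.0167 and 0.0466), calls that 5 and 6 of 15 alternative fits did not give.

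Of 17 genes that carry the receptors' signals, 5 were called higher and 8 lower in wt cells at 48 h. The shares over all genes were 29.5% higher and 26.8% lower. Nfkb2 rose by 1.35 ± 0.15 (SE) and Nfkb1 by 0.92 ± 0.09, both subunits of NF-kB, while Map3k14, the kinase NIK upstream of Nfkb2 processing, fell by 1.63 ± 0.16 and the adaptor gene Grap2 by 1.40 ± 0.20. Between KI and wt at 48 h Sh2d1a, the SAP adaptor of SLAM-family receptors, stood at 18.4, 26.9 and 16.1 CPM in KI against 58.3, 44.5 and 48.8 CPM in wt. That difference of -1.30 ± 0.20 (SE, edgeR adjusted p = 0.00118) was called in 15 of 15 alternative fits. Prkcq, a kinase downstream of CD28, was higher by 0.52 ± 0.14 (SE, edgeR adjusted p = 0.048), called in 7 of 15. Of 8 transcription factors that act on these receptors, Tbx21 rose by 2.82 ± 0.56 (SE) and Eomes by 1.61 ± 0.35 in wt cells at 48 h, Prdm1 fell by 2.11 ± 0.58 and Foxo1 by 1.23 ± 0.12, and none of the 8 was called between KI and wt by edgeR. In the libraries labelled KO none of these ligand, receptor, signalling and regulator genes was called against wt by edgeR.

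The genes most like each receptor over the 22 libraries were named by Pearson r of log2 CPM among 14320 genes with a symbol. Tnfrsf9 and Lag3 were each other's closest, with r of 0.992, and Tnfrsf4 was most like its neighbour Tnfrsf18, at 0.991. Pdcd1 was most like Nrn1 (0.985), Ctla4 like Vegfa (0.971), Tigit like Ttk (0.981), Icos like Kif22 (0.979), Cd28 like Atxn1 (0.976) and Cd27 like Rab29 (0.935). The libraries share mice and the step from naive to stimulated cells, which most genes named here follow, and no p is given.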

How the data were processed

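RNA from 22 libraries of CD8+ T cells was sequenced as paired-end reads from a stranded mRNA kit, per the labels' protocols. The submitters' processing notes name GRCm38 (mm10), bcl2fastq 2.20.0, TopHat2 2.1.0, Bowtie2 2.2.5, SAMtools 0.1.19, featureCounts and DESeq2 1.6.3 without their roles. The authors deposited whole-number counts per gene (46603 genes), log2 normalized and variance-stabilised log2 values, and FPKM values for 21674 genes. The deposited FPKM equal the normalized counts divided by 1 length per gene.

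Counts were tested with edgeR 4.0.16 in R 4.3.3 (filterByExpr with a minimum count of 10 and total of 15, TMM factors, 8 group means over all libraries, robust quasi-likelihood F test, 14 residual degrees of freedom, Benjamini-Hochberg adjustment over 21183 genes, threshold 0.05). The SE is the log2 fold change divided by the square root of F, and intervals are 95% and unadjusted. DESeq2 1.42.0, limma 3.58.1 on the deposited log2 values, other scaling factors, no filter, replicate blocks and leaving out each mouse were alternatives. The robust option was taken to match an earlier analysis, after both fits had been seen, and it changed none of the receptors' calls. The code was tested on simulated data. Replicates within a group are separate mice, and differed by more than sampling noise. The main fit took no account of libraries that share a mouse or an experiment, which only the replicate blocks did.

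Some markers of other cell types are not reported here, and the sum over 4 B cell markers was added after the data had been seen. The receptors, the lists and the motifs were chosen with earlier results of these data known. Other genes were named by a rule: in each list, those called between genotypes, and the 2 largest rises and 2 largest falls called in wt cells at 48 h; for likeness, the most correlated genes. Same-numbered libraries pair by mouse across times, per the labels: their deviations from group means correlated with a median r of 0.155 (19 of 20 pairs over 0.1). For KI and wt libraries of the same experiment and the same time the median r was 0.22 (8 of 9 pairs over 0.1). Over all pairs of the same experiment from different mice and groups it was 0.0623.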

Additional observations from a re-analysis of the deposited data

How the results depend on the processing

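The counts of receptors called in wt, KI and KO-labelled cells against naive cells, and between genotypes, stayed within 1.5 times the main count under every alternative except those given here. From 24 h to 48 h, 6 receptors were called in wt cells, and 1 to 4 with a wt mouse left out. In KI cells 3 were called, 7 with the mouse as a replicate block, 6 with only the compared groups fitted and 0 to 1 with a KI mouse left out. For the libraries labelled KO at 48 h against naive, 10 were called and 6 with only the compared groups fitted. Between KI and wt at 48 h, 0 were called, 1 with the experiment as a replicate block and 0 to 1 with a mouse left out. Between the libraries labelled KO and wt at 48 h, 0 were called and 0 to 4 with a mouse left out; for their difference in activation at 48 h, 0 and 0 to 1. Fewer samples enter the fits that leave out a mouse or other groups, and shares over all genes are given for only some of them. For the block, the cause was not tested. The replicate blocks changed no call of a receptor beyond those given in the report and no other count by over 1.5 times. No called receptor or other named gene changed direction in any alternative; estimates that were not called changed sign 78 times. Upper-quartile scaling moved the median of all genes to -0.259 on the log2 scale in wt cells at 48 h against naive, from -0.0398, and no called receptor changed sign there. Computed from CPM per length, the level of Cd27 moved by more than its SD in naive wt and KI cells, as did that of Icos in naive KO-labelled cells. The fit without robust estimation was added after the data had been seen, as were the alternatives for the other named genes. Depth limits Havcr2, with 1 to 204 counts per library.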
